A study of Mus musculus with 4 samples.

Results

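The TNF superfamily was read in cultured mouse epidermal keratinocytes through 66 probes of 47 genes, of 41174 probes and 27962 gene names on the array. Members were all probes whose gene name began with Tnfsf or Tnfrsf, or was Tnf, Lta, Ltb, Ltbr, Fas, Fasl, Cd40, Cd40lg, Eda, Edar, Eda2r or Ngfr. The array's names are old: Tnfsf7 is Cd70, Tnfrsf7 is Cd27, Tnfrsf19l is Relt, and Tnfsf5ip1 is Psmg2, a proteasome assembly chaperone that is no family member and entered by its name alone. The others were 18 ligand and 28 receptor genes. The 15 genes with several kept probes are counted by their brightest probe, and the other probes are described beside it.

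Ligands of the TNF superfamily are mostly trimeric membrane proteins, some of which are shed, and their receptors share cysteine-rich repeats outside the cell. Receptors with a death domain, such as Fas and Tnfrsf1a, can recruit Fadd and caspase-8 and start cell death, and most members also signal through Traf adaptors to NF-kB and the stress kinases. In the epidermis the family includes Eda and Edar, which direct the development of hair follicles, and Tnf, an inflammatory cytokine that keratinocytes as well as immune cells make.

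The cells came from mice at postnatal day 3 (P3), 2 of each genotype, and all mice carried K5-Cre, a recombinase driven by the keratin 5 promoter of basal keratinocytes, and 1 loxP-flanked Casp8 allele (F). In the mice labelled Casp-8F/–K5-Cre the other allele is null (F/-), and in those labelled Casp-8F/+K5-Cre it is wild-type (F/+, the controls). Other cells that may be present in a culture are not targets of K5-Cre. RNA was taken at passage 1 (early) and passage 3 (late) of culture in a serum-free keratinocyte medium, which makes 8 RNA samples. Each of 4 two-colour arrays held F/- RNA in Cy3 and F/+ RNA in Cy5, with 2 arrays per passage, called pairs 1 and 2. On the late arrays the source name of the Cy5 RNA gives the first passage, whereas title, description and passage entry give 3, which was followed.

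A genotype ratio is the log2 of F/- over F/+ on 1 array, so 1 is a doubling, and errors are SDs over arrays. Dyes were not exchanged, so dye and genotype cannot be told apart in any such ratio; a dye effect that is equal on all arrays cancels in comparisons of passages. By the design text, 2 mice of each genotype gave the RNA of both passages, so the 4 arrays are not 4 independent pairs of animals; the labels do not say whether a pair number stands for the same mice at both. The p-values measure the spread between these arrays, adjusted over all probes, and a gene is said to have passed, risen or fallen where its adjusted p was under 0.05. In bulk RNA, fewer cells of a type and less RNA per cell cannot be told apart.

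All 10 keratinocyte markers were read above the negative-control limit on every array, and their summed level lay between 18.88 and 19.30 on the normalized log2 scale in the 8 samples; Krt5, Krt14, Krt15 and Col17a1 were lower and Epcam higher in F/-. The summed level of 11 macrophage and leukocyte markers lay between 11.88 and 14.75, that of 6 melanocyte markers between 14.53 and 16.39 and that of 8 fibroblast markers between 10.42 and 12.33. The Casp8 probe had ratios of 0.42 and 0.18 early and 0.47 and -0.20 late, and the sources used here do not say whether it lies in the deleted part, which means it checks no label. Median raw signal was 101 to 139 in Cy3 over a local background of 37 to 39, and no gene spot was saturated.

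Of the 47 genes, 44 passed the filter on dim probes, 15 of 18 ligands and 28 of 28 receptors. The ligands Tnfsf10 (TRAIL, which kills through death receptors), Tnfsf12 (TWEAK, the ligand of Tnfrsf12a) and Tnfsf4 (OX40L, the ligand of Tnfrsf4) were not well above background on any array in either channel, and 1 of the 2 probes of Tnfsf11 (RANKL) was so on 1 array in each channel, too few for the filter. Among the 44, 13 stayed under a raw Cy3 signal of 100 on all 4 arrays. These were the ligands Cd40lg, Fasl, Tnfsf8, Tnfsf11 and Tnfsf18 and the receptors Edar, Tnfrsf7, Tnfrsf8, Tnfrsf9, Tnfrsf13b, Tnfrsf13c, Tnfrsf14 and Tnfrsf17. Their array ratios lay between -0.25 and 0.12, and a difference could hardly be seen so near the background.

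Over both passages, 4 of the 44 genes passed as higher in F/- (9.09%) and 2 as lower (4.55%), against 5.85% and 2.99% of the 35563 probes tested. The higher genes were the ligand Tnf and the receptors Tnfrsf12a, Ngfr and Tnfrsf19l, and the lower ones the receptors Tnfrsf4 and Tnfrsf18. The median ratio of the members was -0.02 and that of all probes -0.01. By sign alone, 8 members were higher on all 4 arrays and 10 lower, which is 18.2% and 22.7% of them, near the 18.9% and 19.9% of all probes. With pair number as a block, 4 of the 6 genes passed (Tnf, Ngfr, Tnfrsf19l and Tnfrsf4). In either direction these were 9.09% of the members against 9.12% of all probes, where the main fit had 13.6% against 8.84%. With the 2 arrays of each pair averaged, so that n is 2 pairs, 0 passed, among the members and among all probes. Leaving out either early array, or the late one of pair 1, also left 0, among the members and among all probes; without the late one of pair 2 there were 5. With the scanner's processed signals or the authors' deposited ratios 4 passed (Tnf, Tnfrsf12a, Tnfrsf4 and Tnfrsf18). These were 9.09% and 9.30% of the members, against 5.11% of all probes in both settings. With median centring in place of loess, 1 member passed as higher (Tnf) and 3 as lower (Tnfrsf1a, Tnfrsf4 and Tnfrsf18). In either direction 9.09% of the members and 11.2% of all probes passed. The higher share of all called probes was 23.1% with median centring against 66.2% with loess.

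**Figure D1:**
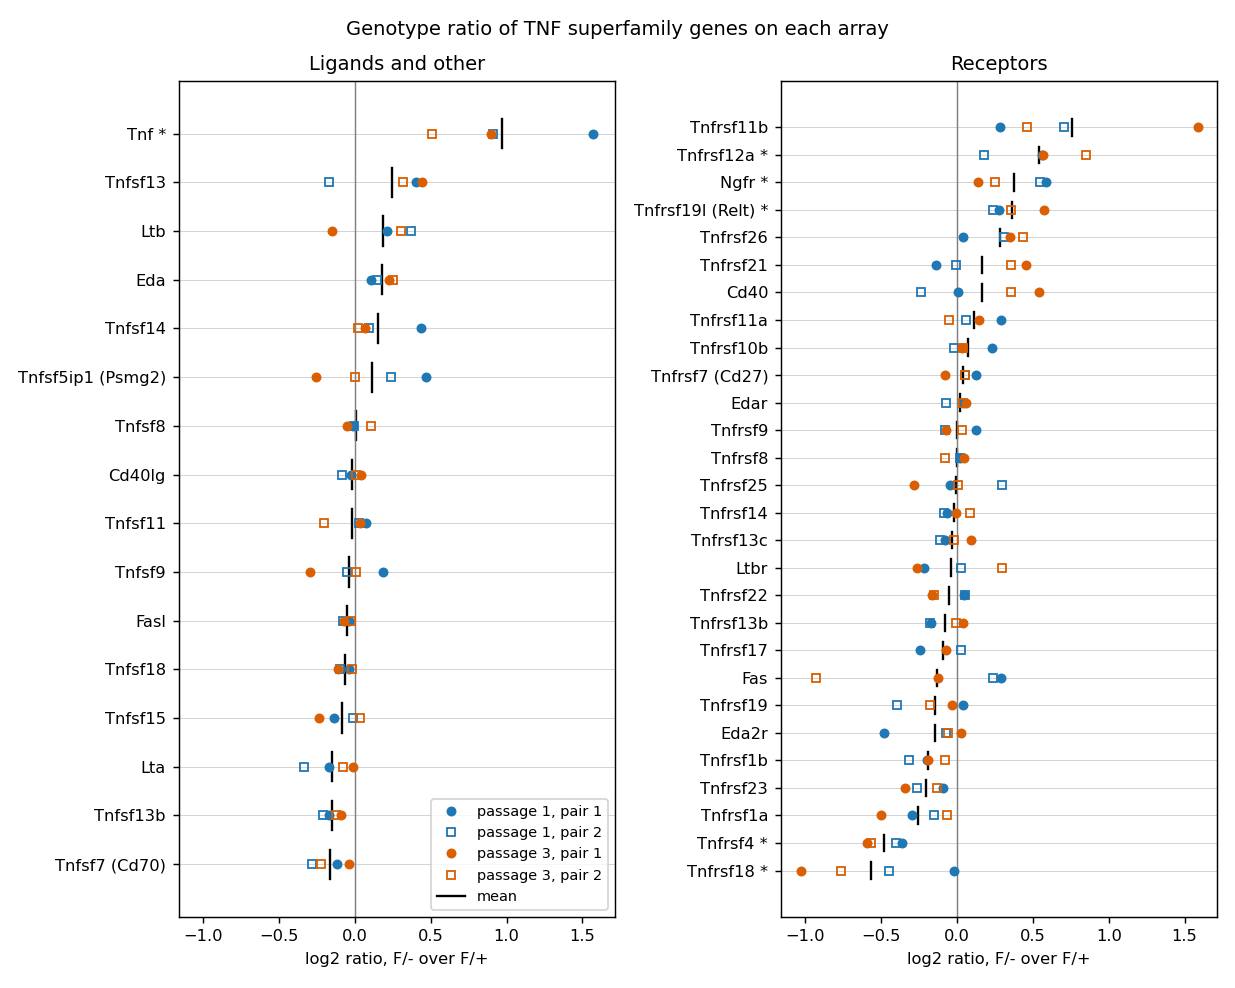
Log2 ratio of F/- over F/+ (x axis) of the 44 kept genes (y axis), ligands and Psmg2 on the left and receptors on the right, ordered by mean. Each symbol is 1 array and the bar the mean; Tnfrsf17 has 3 arrays, and an asterisk marks an adjusted p under 0.05 for the mean. Tnf stands at the top of the ligands with 4 ratios from 0.51 to 1.57, and Tnfrsf4 and Tnfrsf18 at the foot of the receptors.

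Among the ligands, Tnf alone passed. For pairs 1 and 2 its ratios were 1.57 and 0.91 early and 0.90 and 0.51 late, and its normalized log2 levels 11.99, 11.53, 12.75 and 11.87 in F/- against 10.42, 10.62, 11.85 and 11.37 in F/+. F/- was thus the higher on each array, and at each passage both F/- samples lay above both F/+ samples, though at passage 3 the lower F/- and the higher F/+ sample nearly met (11.87 and 11.85). The mean was 0.97 ± 0.44 (SD, n = 4 arrays), a 1.96-fold difference (adjusted p = 0.029), and the adjusted p was 0.054 with each pair's arrays averaged. The probe is printed 10 times on the array, and the SD of its ratio over spots of 1 array was 0.027 to 0.068, far less than the spread between arrays. The 11 macrophage and leukocyte markers, of which Lyz2 passed as higher, had a median ratio of 0.42 in the same arrays, and their part in the Tnf ratio was not tested.

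The other 14 ligands had mean ratios between -0.17 and 0.25, and none passed. Lta, the neighbour of Tnf in the genome and a ligand of the same receptors, had ratios of -0.17, -0.34, -0.02 and -0.08 (mean -0.15 ± 0.14, adjusted p = 0.17). Its sign was thus opposite to that of Tnf on every array, but the probe was dim, at raw Cy3 signals of 75.8 to 139.5. On the late arrays the SD of its ratio over the 8 spots used was 0.11 and 0.07, which is a spread of single spots and not of their mean. At passage 3 its genotype ratio had an adjusted p of 0.82 in limma's test. Fasl, the ligand of Fas, was near background, with ratios between -0.08 and -0.02 on its brighter probe and -0.06 and 0.03 on the other. Eda, ectodysplasin, was positive throughout, at 0.10, 0.15, 0.22 and 0.25 (mean 0.18 ± 0.07, adjusted p = 0.097). Its size depends on the scaling, at 0.45 with the scanner's processed signals (adjusted p = 0.060) and 0.11 with median centring (adjusted p = 0.36). Ltb, the membrane partner of Lta, had ratios of 0.21, 0.37, -0.15 and 0.30 and so no single sign.

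Of the receptors, Tnfrsf12a (Fn14), which binds the TWEAK ligand, gave ratios of 0.56, 0.18, 0.57 and 0.85. F/- was the higher on every array, by 0.54 ± 0.27 on average (adjusted p = 0.039, 0.052 with the block). It is a bright probe, at raw signals of 33021 to 48470 in Cy3 and 38333 to 68992 in Cy5, and its sign depends on the scaling: with median centring in place of loess the mean was -0.05 (adjusted p = 0.74).

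Tnfrsf19l (Relt), an orphan receptor of the family, read 0.28 and 0.24 early and 0.57 and 0.35 late (mean 0.36 ± 0.15, adjusted p = 0.040, and 0.053 with the scanner's processed signals). Both late ratios lay above both early ones, though the difference of 0.20 (SE 0.12) did not pass. Tnfrsf11b, osteoprotegerin, a secreted decoy of RANKL, had the largest mean of any receptor but also the widest spread. Its ratios were 0.28, 0.71, 1.59 and 0.46 (mean 0.76 ± 0.58, adjusted p = 0.084), and the late array of pair 1 stood apart. Without that array the mean was 0.48 (adjusted p = 0.11), and without the late array of pair 2 it was 1.04 and passed (adjusted p = 0.022), as it did with a normexp offset of 0 (adjusted p = 0.046). Col1a1 and the other 7 fibroblast markers, none of which passed, had a median ratio of 0.30, and their summed level on that array was 12.33 in F/- and 10.75 in F/+; their part was not tested.

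Ngfr, the low-affinity neurotrophin receptor, showed opposite signs on its 2 probes. The brighter one read 0.58 and 0.54 early and 0.14 and 0.25 late (mean 0.38 ± 0.22, adjusted p = 0.031, and 0.064 with the scanner's processed signals), while the other read -0.34, -0.18, -0.31 and -0.20 (mean -0.26 ± 0.08, adjusted p = 0.066). Tnfrsf1b, TNF receptor 2, was split as well. Its brighter probe gave -0.20, -0.32, -0.19 and -0.08 (mean -0.19 ± 0.10, adjusted p = 0.10), and its other probe 0.58, 0.49, 0.38 and 0.51 (mean 0.49 ± 0.08, adjusted p = 0.026). With all probes of a gene averaged, the Tnfrsf1b mean changed its sign to 0.15 and that of Ngfr was 0.06, so no direction can be given for Tnfrsf1b as a gene and the call for Ngfr is that of 1 probe. Which transcripts the probes detect is not given in the sources used here. No other additional probe passed by genotype. Where not given elsewhere, the means were -0.15, -0.03 and 0.05 for Eda2r, a receptor of an Eda isoform, -0.01 and -0.13 for Tnfrsf25, and 0.00 and 0.02 for Tnfrsf9. They were -0.08 and 0.07 for Tnfrsf13b, -0.02 and 0.06 for Tnfrsf14, -0.15 and -0.08 for Tnfsf13b, and 0.11 and -0.21 for Psmg2. Those of Tnfrsf11a were 0.11 and 0.08, of Tnfrsf19 -0.14 and -0.01, and of Tnfrsf21 0.17, 0.13 and 0.00.

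**Figure D2:**
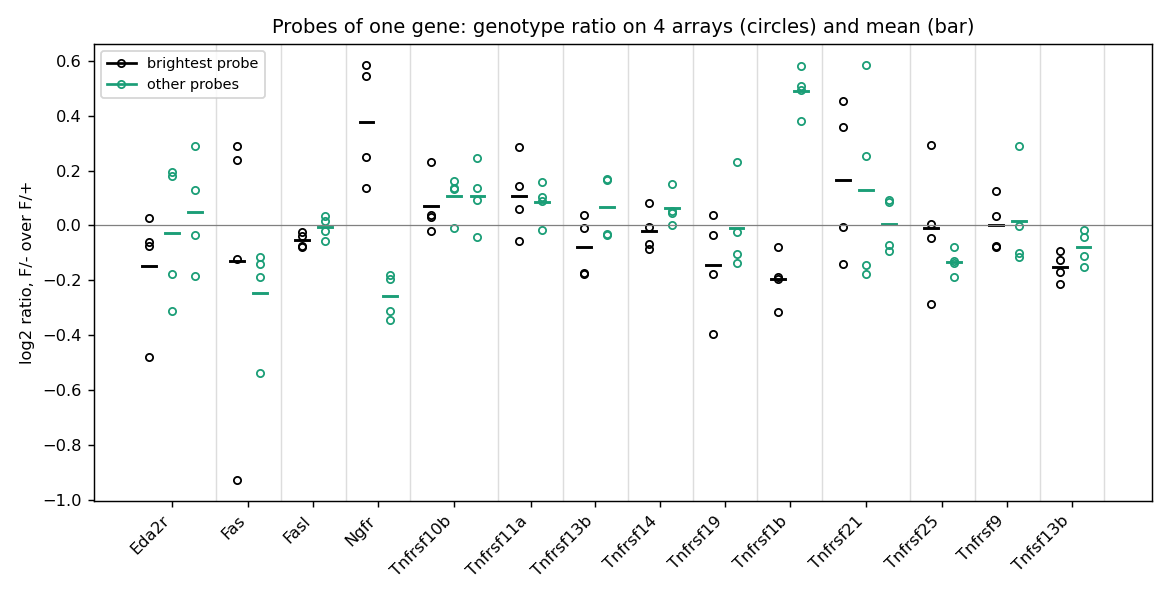
Log2 ratio of F/- over F/+ (y axis) for each kept probe of the 14 family genes with more than 1 kept probe (x axis); circles are the 4 arrays and bars their mean, black for the brightest probe and green for the others. The probes of Ngfr and of Tnfrsf1b lie on opposite sides of 0 without overlap, with means of 0.38 and -0.26 and of -0.19 and 0.49.

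Tnfrsf1a, Fas and Tnfrsf10b, which are only some of the family's death domain receptors, did not pass, and neither did the receptor Ltbr. Tnfrsf1a, TNF receptor 1, was lower in F/- on all 4 arrays, with ratios of -0.30, -0.15, -0.50 and -0.07 (mean -0.26 ± 0.19, adjusted p = 0.14). Of the 14 alternatives run, 1 took it past the threshold, median centring at -0.60 (adjusted p = 0.043). Fas read 0.29 and 0.24 early but -0.12 and -0.93 late on its brighter probe. Early and late ratios did not overlap, yet the late minus early difference of -0.79 (SE 0.28) had an adjusted p of 0.84, and the dimmer Fas probe was negative throughout, from -0.54 to -0.11. Tnfrsf10b, the mouse TRAIL receptor, had 3 probes with means of 0.07, 0.11 and 0.11, none of which passed. Ltbr, the lymphotoxin beta receptor, had 2 ratios on either side of 0, from -0.26 to 0.30.

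The receptors lower in F/- were a pair of neighbours. Tnfrsf4 (OX40) and Tnfrsf18 (GITR) are best known as costimulatory receptors of T cells, and they lie next to each other on chromosome 4. Tnfrsf4 had ratios of -0.36, -0.40, -0.60 and -0.56, the most even of the 6 genes, with a mean of -0.48 ± 0.12 (adjusted p = 0.026). Tnfrsf18 read -0.02 and -0.45 early and -1.03 and -0.76 late, so that F/- and F/+ were nearly equal on the early array of pair 1 (mean -0.57 ± 0.43, adjusted p = 0.039, 0.050 with the block). Raw Cy3 signals were 477 to 1340 for Tnfrsf4 and 1174 to 3365 for Tnfrsf18. The 7 T cell markers, Cd3e and Cd3g included, had a median ratio of -0.08, 0 of them passed, and their summed level was 10.71 to 11.61 in the 8 samples. Cd3e, Cd3g and Cd2 read lower in F/- on all 4 arrays, as Tnfrsf4 and Tnfrsf18 did, with means of -0.17, -0.14 and -0.11. The other T cell markers had ratios on either side of 0. Their means were 0.12 for Lck, -0.08 for Cd247, -0.03 for Cd3d and 0.39 for Thy1, which fibroblasts also express. In F/- on the late array of pair 1, Thy1 alone stood at 11.18, against the T cell sum of 11.61. The part of T cells in the Tnfrsf4 and Tnfrsf18 ratios was not tested.

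Since both neighbours passed as lower, the 250 bases before the start of each are shown (RefSeq, GRCm38.p6, plus strand, chr4:156013445-156013694 for Tnfrsf4 and chr4:156026072-156026321 for Tnfrsf18). They were searched on both strands for the NF-kB consensus by name, for the AP-1 motif TGANTCA and for the TATA box TATAAA, and neither window holds any of them.
Tnfrsf4: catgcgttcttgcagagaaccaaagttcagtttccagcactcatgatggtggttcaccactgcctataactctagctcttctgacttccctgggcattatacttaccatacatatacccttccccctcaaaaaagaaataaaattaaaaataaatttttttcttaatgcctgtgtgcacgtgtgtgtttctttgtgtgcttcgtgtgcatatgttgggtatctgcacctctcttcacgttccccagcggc
Tnfrsf18: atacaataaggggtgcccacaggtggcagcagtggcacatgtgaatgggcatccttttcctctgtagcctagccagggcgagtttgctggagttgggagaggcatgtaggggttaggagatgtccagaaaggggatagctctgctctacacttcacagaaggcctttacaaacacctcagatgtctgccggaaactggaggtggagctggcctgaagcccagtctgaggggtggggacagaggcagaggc

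At the single passages 0% of probes passed in limma's test, and so did 0 members, with a smallest adjusted p of 0.075 early and 0.079 late. Of the 44 members, 9 and 11 had an unadjusted p under 0.05, as did 7330 and 7109 of the 35563 probes (20.6% and 20.0%). For late minus early, which asks whether the genotype difference changed with culture, the share was 0% too. The smallest adjusted p of a member was 0.82, and 6 of the 44 members had an unadjusted p under 0.05, against 2073 probes (5.83%). The difference was positive for Cd40 and Tnfrsf21 and negative for Fas, Ngfr, Tnfrsf18 and Psmg2. Cd40, the receptor of Cd40lg, read 0.00 and -0.24 early and 0.54 and 0.36 late. Tnfrsf21 (DR6), a death domain receptor, read -0.14 and -0.01 early and 0.45 and 0.36 late, and a second probe of it -0.18, -0.14, 0.25 and 0.59. In both genes each late ratio lay above each early one, and neither difference passed.

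With passage, Ltb and Tnfrsf21 rose and Tnfrsf19 and Tnfrsf4 fell in both genotypes. In F/- cells 3 of 43 genes rose from passage 1 to 3 (6.98%) and 5 fell (11.6%), against 2.82% and 2.28% of the 35464 probes tested. In F/+ cells 3 rose (6.98%) and 3 fell (6.98%), against 3.17% and 2.49%. Tnfrsf17 lacked a value on the late array of pair 2 and was left out. The 4 genes that passed in both genotypes are 50% of the calls in F/- and 66.7% of those in F/+; the genotypes share arrays, so these are not independent. With pair number as a block 5 genes passed in F/- (Ltb, Tnfrsf21, Ngfr, Tnfrsf19 and Tnfrsf4) and 4 in F/+ (Ltb, Tnfrsf11a, Tnfrsf19 and Tnfrsf4). In either direction these were 11.6% and 9.30% of the members, against 4.25% and 4.58% of all probes. With the scanner's processed signals there were 3 (Ltb, Tnfrsf21 and Tnfrsf19) and 4 (Ltb, Tnfrsf11a, Tnfrsf19 and Tnfrsf26). The shares were then 6.98% and 9.30% of the members, against 4.38% and 5.33% of all probes. Without the early array of pair 1 the counts were 0 and 1 (Tnfrsf19), without that of pair 2 both were 0, and without the late array of pair 2 they were 4 and 2.

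**Figure D3:**
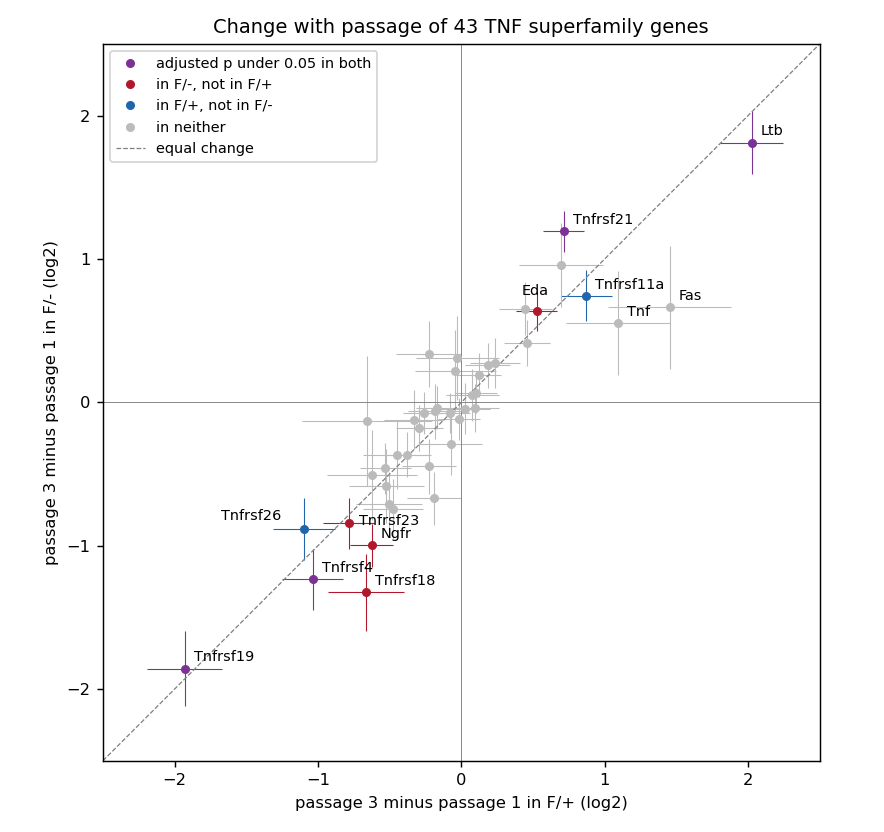
Change from passage 1 to passage 3 in F/+ (x axis) and F/- (y axis) for 43 genes, in log2 units, with bars of 1 SE; colours give where the adjusted p was under 0.05 and the dashed line marks equal change. Ltb lies at the upper right (2.03 and 1.81) and Tnfrsf19 at the lower left (-1.93 and -1.86), both near the line.

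The ligand that rose most was Ltb. Its levels at passage 1 were 7.40 and 7.39 in F/- and 7.19 and 7.02 in F/+, and at passage 3 they were 9.06 and 9.36 in F/- and 9.21 and 9.05 in F/+. All 4 late samples lay far above all 4 early ones. The rise was 3.51-fold in F/- (1.81, SE 0.22, adjusted p = 0.0057) and 4.07-fold in F/+ (2.03, SE 0.22, adjusted p = 0.0034). Its size depends on the setting: over 14 alternatives the Ltb change lay between 1.66 and 2.36 in F/- and between 1.94 and 2.76 in F/+. Tnf also read higher late, by 0.76 and 0.35 in the F/- pairs and 1.43 and 0.75 in the F/+ pairs, but did not pass (adjusted p = 0.43 and 0.14). Lta, whose probe was dim, did not read higher late, at -0.45 to -0.05 in the 2 pairs of both genotypes. Eda rose in F/- by 0.64 (SE 0.14, adjusted p = 0.049), which was lost with the block (0.079) and 1.15 with the scanner's processed signals (0.060), and stood at 0.52 in F/+ (adjusted p = 0.083). The summed level of the 11 macrophage and leukocyte markers was 14.15 to 14.75 early and 11.88 to 13.66 late. In F/- on the early array of pair 1, Lyz2 alone stood at 14.28, against the sum of 14.75. Their median change was -1.24 in F/- and -1.10 in F/+, while Cd14 read higher late, by 0.61 and 0.70, and did not pass. The part of these cells in the Ltb change was not tested.

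Ltb, Tnf and Lta lie side by side on chromosome 17, and the 250 bases before the starts of Ltb and Tnf are shown, since 1 rose with passage and the other differed by genotype (RefSeq, GRCm38.p6; Ltb on the plus strand at chr17:35194257-35194506, Tnf on the minus strand at chr17:35202008-35202257). Capitals mark a match of the NF-kB consensus in Ltb, from 87 to 78 bases before the start, and the TATA box of Tnf, from 29 to 24 bases before it.
Ltb: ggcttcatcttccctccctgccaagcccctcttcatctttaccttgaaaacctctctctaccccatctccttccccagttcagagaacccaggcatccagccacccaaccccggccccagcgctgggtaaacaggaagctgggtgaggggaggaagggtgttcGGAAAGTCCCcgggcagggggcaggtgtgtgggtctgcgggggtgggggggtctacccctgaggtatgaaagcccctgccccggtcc
Tnf: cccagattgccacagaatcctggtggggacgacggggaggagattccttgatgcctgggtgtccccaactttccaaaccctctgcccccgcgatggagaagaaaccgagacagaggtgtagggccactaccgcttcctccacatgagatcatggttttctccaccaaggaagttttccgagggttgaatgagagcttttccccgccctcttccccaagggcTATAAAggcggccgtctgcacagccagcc
The same motifs were searched in 40 windows of 36 member genes. The NF-kB consensus was in 4 of them, those of Ltb, Tnfrsf8, Tnfrsf9 and Tnfrsf25 (10.0%, against 7.25% of all 32851 windows), AP-1 in 6 (15.0% against 6.75%) and the TATA box in 7 (17.5% against 12.4%). A match describes letters only, and the motifs do not overlap in the windows shown.

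Among receptors, Tnfrsf21 rose and Tnfrsf19 fell in both genotypes. Tnfrsf21 went from 7.79 and 7.81 to 9.01 and 8.98 in F/-, a 2.29-fold rise (adjusted p = 0.0057), and from 7.93 and 7.82 to 8.56 and 8.63 in F/+, a 1.64-fold rise (adjusted p = 0.033, 0.072 with the block). Early levels were alike, and late levels were higher in F/- in both pairs. Its second probe rose by 0.85 in F/- (adjusted p = 0.045) and stood at 0.27 in F/+ (adjusted p = 0.43), and the dimmest one at 0.13 and -0.04; with all 3 averaged the changes were 0.73 (adjusted p = 0.017) and 0.32 (adjusted p = 0.19). Tnfrsf11a (RANK), the receptor of RANKL, rose in F/+ by 0.87 (adjusted p = 0.035) and stood at 0.74 in F/- (adjusted p = 0.061). The F/+ value was 2.17 with the scanner's processed signals and 0.42 with its probes averaged (adjusted p = 0.17). Its second probe stood at -0.03 in F/+ and 0.00 in F/-. At passage 1 the first probe read 61.6 and 81.5 in raw Cy3 and 92.6 and 151.9 in raw Cy5, so its early level is near background.

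Tnfrsf19 (TROY), a receptor known from hair follicle progenitors, dropped from 8.81 and 9.11 to 7.03 and 7.17 in F/-. In F/+ it went from 8.77 and 9.51 to 7.07 and 7.35. No late sample reached the lowest early one, and the fold was 3.62 in F/- (adjusted p = 0.011) and 3.81 in F/+ (adjusted p = 0.0080), passage 1 over passage 3. Its second probe was dim and did not pass (-0.20 and -0.42), and with both averaged the changes were -1.03 and -1.18 and passed. At passage 3 the signal of the first was 90.4 and 95.5 in raw Cy3, so the late level is near background. Over 14 alternatives the Tnfrsf19 change lay between -2.58 and -1.03 in F/- and between -2.63 and -1.18 in F/+.

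Tnfrsf4 and Tnfrsf18 fell with passage as well. Tnfrsf4 went from 10.92 and 10.51 to 9.70 and 9.26 in F/-, 2.35-fold (adjusted p = 0.022), and from 11.29 and 10.91 to 10.30 and 9.83 in F/+, 2.05-fold (adjusted p = 0.036). Every late sample was below every early one, and F/- was below F/+ in each pair at each passage. Tnfrsf18 fell in F/- from 12.19 and 11.91 to 10.92 and 10.53, 2.51-fold (adjusted p = 0.037, 0.067 with the block), and in F/+ it went from 12.21 and 12.36 to 11.95 and 11.29 without passing (adjusted p = 0.22). The difference between these changes, -0.66 (SE 0.19), is the late minus early contrast and did not pass. The 7 T cell markers had a median change with passage of 0.06 in F/- and -0.24 in F/+. In F/- 0 of them rose or fell, and in F/+ 1 rose (Lck, 0.74) and 0 fell. The part of T cells in the changes of Tnfrsf4 and Tnfrsf18 with passage was not tested.

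**Figure D4:**
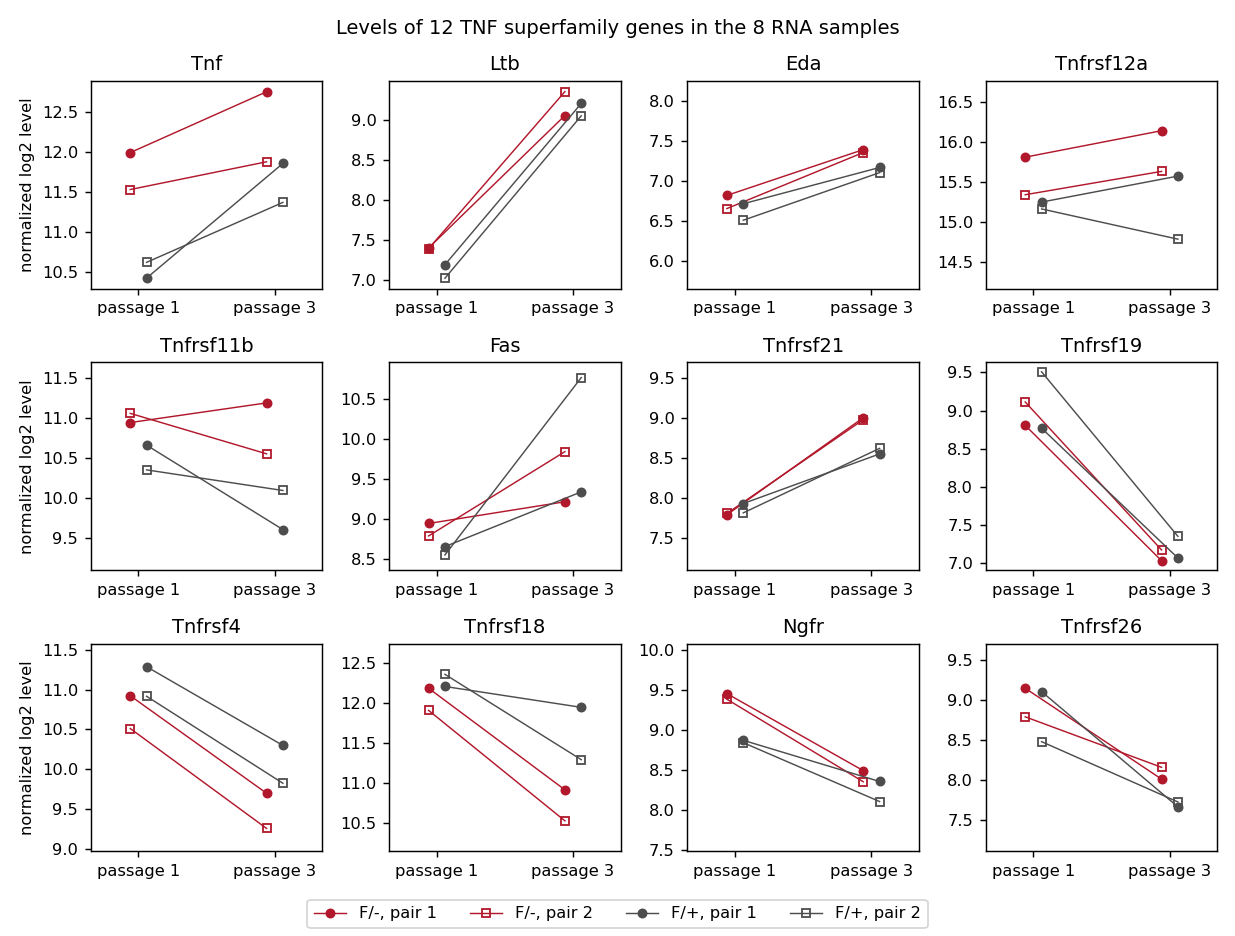
Normalized log2 level (y axis) of 12 genes at passage 1 and 3 (x axis); each line joins the samples of 1 pair number, red for F/- and grey for F/+, and the y axes differ in position. Ltb and Tnfrsf21 rise and Tnfrsf19, Tnfrsf4, Ngfr and Tnfrsf26 are lower late in all 4 lines, while Tnf runs higher in F/- at both passages.

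Ngfr fell on its brighter probe in F/-, from 9.45 and 9.38 to 8.49 and 8.35 (adjusted p = 0.013), and went from 8.87 and 8.84 to 8.35 and 8.10 in F/+ (adjusted p = 0.056). The other probe did not follow, at 0.28 and 0.27, and with both averaged the F/- change was -0.36 (adjusted p = 0.26). Melanocytes also express Ngfr: of the 6 melanocyte markers 4 fell in F/- and 3 in F/+, and the melanocyte sum went from 16.05 to 16.39 early to 14.53 to 14.70 late. By genotype 0 of the melanocyte markers passed, and their part in Ngfr was not tested. Tnfrsf26, Tnfrsf22 and Tnfrsf23 are neighbouring and closely related genes on chromosome 7, of which Tnfrsf22 and Tnfrsf23 are decoy receptors of TRAIL, and how far their probes share transcripts is not given in the sources used here. All 3 read lower at passage 3 in both pairs of each genotype. Tnfrsf23 passed in F/- (-0.84, adjusted p = 0.044, 0.073 with the block), Tnfrsf26 in F/+ (-1.10, adjusted p = 0.031, 0.056 with the block), and Tnfrsf22, at -0.71 and -0.50, in neither. By genotype Tnfrsf26 and Tnfrsf23 had opposite signs on all 4 arrays, 0.28 ± 0.17 and -0.21 ± 0.12, and neither passed.

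Among the 33 genes that passed in neither genotype, Fas had the largest difference, in F/+. It went from 8.66 and 8.55 to 9.34 and 10.77 in F/+ and from 8.95 and 8.79 to 9.22 and 9.85 in F/-. Late minus early was positive in both pairs of each genotype, from 0.27 to 2.22, and the widest step was that of pair 2 in F/+; the mean changes were 1.45 (adjusted p = 0.11) and 0.66 (adjusted p = 0.43). The F/+ value rests on the late arrays: it was 2.17 without that of pair 1 (adjusted p = 0.0022) and 0.74 without that of pair 2 (adjusted p = 0.11), and with both Fas probes averaged it was 0.88 (adjusted p = 0.047). The others lay between -0.74 and 0.96 in F/- and between -0.66 and 1.09 in F/+. Tnfrsf12a, Tnfrsf1a and Tnfrsf1b were among them.

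Genes that act just behind the receptors were read through a list of 42, all of which passed the filter. Over both passages 6 passed as higher in F/- and 0 as lower (5.85% and 2.99% of all probes), and the median was 0.16, against -0.01 over all probes; with median centring 2 passed as higher and 1 as lower and the median was -0.05, that of all probes too. With the block the counts were 8 and 1, and none passed with each pair's arrays averaged, or with either early array or the late one of pair 1 left out. The 6 were Tnfaip3 (A20, 0.84 ± 0.26) and its partner Tnip1 (0.68 ± 0.11), which restrain NF-kB; Rhbdf2 (iRhom2, 0.84 ± 0.07), which the protease that sheds TNF needs; the kinase gene Ikbkb (0.38 ± 0.05); the adaptor Traf1 (0.43 ± 0.12); and the inhibitor Nfkbia (0.35 ± 0.24). Rhbdf2 had ratios of 0.89, 0.86, 0.87 and 0.74. Adam17, the sheddase itself, stood at 0.10 ± 0.15, and the death domain partners Fadd and Tradd at 0.04 ± 0.20 and -0.07 ± 0.10. With passage 1 gene of the list rose and 2 fell in F/-, where 2.82% and 2.28% of all probes did, and 1 rose and 0 fell in F/+, where 3.17% and 2.49% did. Map3k14 (NIK), a kinase of the Ltbr pathway, rose in both genotypes (1.06 and 1.11), and Ripk3 (-0.94) and Nfkbia (-0.88) fell in F/-; with the block neither of these falls passed, and with the scanner's processed signals, or with either early array left out, 0 of the 42 passed in either genotype.

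A second list held 31 genes taken as induced through TNF receptors and NF-kB, NF-kB subunit and inhibitor genes included. Of these, 30 were kept and Il6 was not. By genotype 7 passed as higher and 0 as lower, against the same 5.85% and 2.99% of all probes, with a median of 0.30; with median centring these were 5, 1 and 0.11. With the block the counts were 11 and 1, and the settings that left 0 signalling genes left 0 here too. The 7 were Mmp13 (2.36 ± 1.33), Mmp9 (1.55 ± 0.62), Ccl2 (0.86 ± 0.58), Cxcl2 (0.76 ± 0.42), Relb (0.57 ± 0.07), Nfkb2 (0.56 ± 0.14) and Il1a (0.50 ± 0.39). Mmp13, Mmp9 and Ccl2 were highest on the early array of pair 1, as Tnf was. Ccl20 ran against the list at -1.18 ± 1.04 and did not pass. Over the same arrays the macrophage and leukocyte markers had a median of 0.42, with Lyz2 passing, and the fibroblast markers one of 0.30, and their part in this list was not tested. With passage the list split, with 3 genes up and 1 down in F/- and 4 up and 1 down in F/+, against the shares of all probes just given. Csf2 (3.32 and 4.01), Lcn2 (2.98 and 2.66) and Ccl5 (1.84 and 2.78) rose in F/- and F/+ and Cxcl2 fell (-2.43 and -1.83), while Cxcl5 rose in F/+ (2.54). With the block Ccl5 in F/- and Cxcl2 in F/+ no longer passed, and with either early array left out 0 passed in F/- and 1, Csf2, in F/+. Both lists were chosen with earlier results of these data known.

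**Figure D5:**
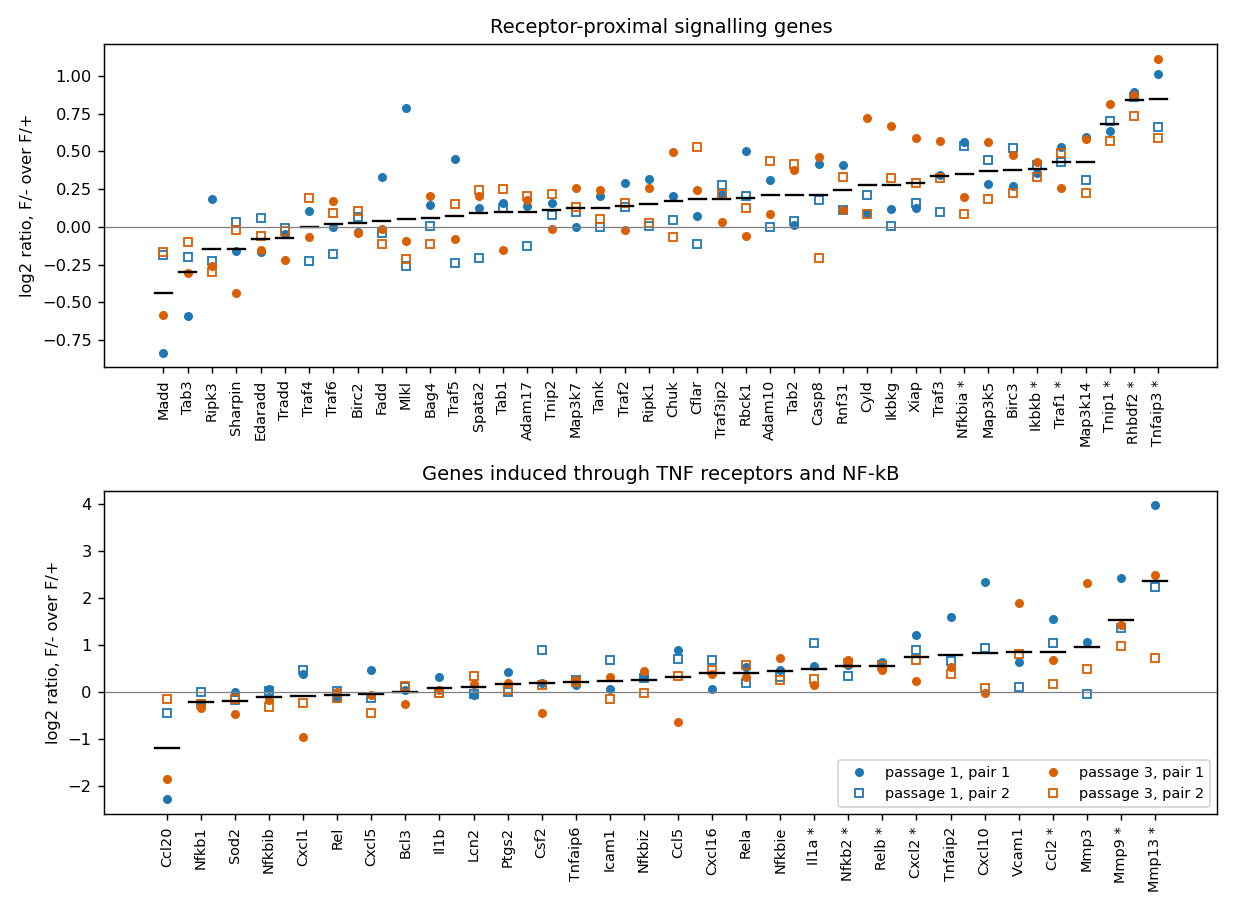
Log2 ratio of F/- over F/+ (y axis) of 42 receptor-proximal signalling genes (top) and 30 genes taken as induced through TNF receptors and NF-kB (bottom), ordered by mean (x axis). Symbols are single arrays, bars means, and an asterisk marks an adjusted p under 0.05 for the mean. The 6 and 7 genes marked are all above 0, with Tnfaip3, Rhbdf2 and Tnip1 at the right of the upper panel.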

How the data were processed

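The submitters' processing notes name Agilent Feature Extraction 9.1.3.1. The deposited scanner files hold raw and processed intensity in both channels and the log10 ratio of each spot, per the file headers. The authors' deposited value table holds the same log10 ratios as Cy3 over Cy5 (largest gap 4.96e-06). Its column medians were -0.00223, 0, 0 and -0.000733. From the deposited raw intensities, log2 ratios of F/- over F/+ were computed in limma 3.58.1 (R 4.3.3) by normexp (offset 50) and loess, with control spots and outlier flags at weight 0. Spots of a probe were averaged, and a probe was kept if 2 or more arrays read it well above background in either channel and no more than 1 array lacked a value. Levels are log2 intensities after loess and Aquantile.

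For genotype, limma's moderated test used all 4 arrays in a model with a mean per passage (2 residual degrees of freedom). Passage 3 over 1 was tested in a separate-channel fit (correlation between channels 0.741). Tests were two-sided, with Benjamini-Hochberg adjustment over all kept probes, and both fits were tested on simulated data. All arrays lay on 1 slide in 1 scan, so no batch could be fitted. The number of arrays limits the precision. The design text ties both passages to the same mice, and the labels number the pairs; the correlation across probes of same-numbered arrays' deviations from the mean of their passage was -0.00047. Names came from the file and a RefSeq table (GRCm38.p6).

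Members, lists and tests were chosen with earlier results of these data known. Values are given for each member called in any comparison, the 12 largest ratios of one sign, the 6 largest passage changes in each genotype and a core set of epidermal members. Alternatives changed background correction, normalization, filter, pairing, probe averaging, channel model and the arrays used. Some marker lists are not reported here.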

Additional observations from a re-analysis of the deposited data

How the results depend on the processing

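Of 392 values of 28 gene results under 16 other settings, 282 kept their direction and their side of the threshold, 102 no longer passed, 6 passed anew and 2 changed sign. The sign changes were those of Tnfrsf12a under median centring (-0.054) and of Tnfrsf1b with the mean of all probes of a gene (0.15). For the genotype mean, the 6 member genes called became 0 to 5 when 1 array was left out, 0 with the arrays of each pair averaged and 4 with the replicate block. Fewer samples entered the fits without an array or with pairs averaged. For passage 3 over 1 in F/-, 8 became 3 with the scanner's processed signals, 5 with the replicate block and 0 to 7 without 1 array. For passage 3 over 1 in F/+, 6 became 4 with the replicate block, 2 with a single channel alone and 0 to 6 without 1 array. Each fit without 1 array leaves a passage with 1 array, which is assumed to vary like the other 2, and takes the channel correlation of the full data. Beyond these and the values beside each result, the cause was not tested. With median centring the members called by genotype were Tnf, higher, and Tnfrsf1a, Tnfrsf4 and Tnfrsf18, lower, and 23.1% of all called probes were higher, against 66.2% with loess.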
